A study of Homo sapiens with 4 samples.

Results

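TFF1, TFF2, TFF3, REG4, AGR2, AGR3, SPDEF, ATOH1, SPINK1 and SPINK4 are genes of the secretory lineages of the gut, or of the transcription programme that makes them. These genes were chosen with earlier results of these data known. Their probe sets were taken by gene symbol from the annotation of an Affymetrix array, whatever their values. All 10 genes had at least 1 probe set, 17 of 54675 probe sets in all, and all 10 were among the 13651 genes kept after a filter on low values. The study set 2 colon cancer cell lines, HT29 and Colo205, against a derivative of each, labelled HT29RC and Colo205RC, that had been selected in rising doses of PLX4720. PLX4720 is an inhibitor of the kinase BRAF, and the question was what distinguishes cells with acquired resistance from their parents. The design text gives both lines as partly sensitive to the drug at the outset and calls the derivatives clones, without saying how many were carried forward. All 4 cultures had 10% serum, and the derivatives spent 24 h out of PLX4720 before harvest, so no array shows cells under the drug. Each line and status was measured on 1 array, which leaves 2 parental and 2 resistant arrays.

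The epithelium of the colon is renewed from stem cells whose daughters become either absorptive or secretory. Low Notch signalling permits expression of ATOH1, a basic helix-loop-helix factor that commits a cell to the secretory fate, and SPDEF, an ETS factor, then drives goblet cell maturation. Goblet cells release mucins together with small, disulfide-rich trefoil peptides. The protein disulfide isomerase AGR2 works in their endoplasmic reticulum, AGR3 is its close relative, and REG4 is a secreted lectin of enteroendocrine and goblet cells. SPINK1 and SPINK4 are Kazal-type inhibitors, SPINK1 of trypsin.

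The 4 arrays were alike in scale, with medians over all probe sets from 5.70 to 5.75 on the log2 scale. Of the 24 poly-A spike control probe sets, the median was lower on the resistant array in both lines, by -0.43 in HT29 and by -0.72 in Colo205, while the 18 hybridisation controls differed by -0.08 and -0.05. The part of the spike controls in the differences reported here was not tested. All 11 colon epithelial markers passed the filter, which needs 1 array at or above its value of 5.73. KRT20 read 12.69 and 14.28 in the HT29 pair but 4.79 and 3.95 in the Colo205 pair. CDX2 was below the filter value in both parents, at 5.17 in HT29 and 5.66 in Colo205. Of the 11 markers, 4 were 2-fold or more higher in resistant HT29 (CDH17, KRT20, CDX2 and KRT19), where 3.42% of all genes were. In resistant Colo205 there was 1 (CDH17), where 0.908% of genes were. CDH17, at 5.30, and CDX2 start below the filter value in parental HT29, so their folds there have no exact size. Of 5 leukocyte markers, 2 passed the filter (CD14 and ITGAM), with the list's array medians from 5.18 to 5.40, and PTPRC was below it on every array. Of 3 endothelial markers, 2 passed (PECAM1 and VWF), with array medians from 5.50 to 5.87, and CDH5 was below it on every array. PECAM1 read 6.29 and 7.18 in the HT29 pair and 5.82 and 5.69 in the Colo205 pair. The part of these markers in the differences of the members was not tested. The fibroblast list kept 4 of 6 genes, with array medians from 5.63 to 5.81 against a filter value of 5.73. COL1A1 read between 7.23 and 7.45 on the 4 arrays. LUM, at 5.14 and 6.80 in the HT29 pair, was the list's 1 gene past 2-fold. Of 3 erythroid markers 1 passed, HBB, between 6.77 and 6.92. Whether readings at these levels reflect expression was not tested.

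The bases just before the start of REG4, AGR2 and AGR3 are shown because these are the members with a difference of at least 1.5-fold upward in a resistant line for which RefSeq gives a start site window. Each is the 250 bases before the start, 5′ to 3′ on the minus strand of GRCh38.p14, at chr1:119811461-119811710 for REG4, chr7:16805000-16805249 for AGR2 and chr7:16881984-16882233 for AGR3. Capitals mark matches, on either strand, to the TATA box letters TATAAA, and to TTTATNG (caudal factors such as CDX2), TGTTTNC (forkhead factors), TGANTCA (AP-1) and CANNTG (the E-box read by ATOH1 and other helix-loop-helix factors).
REG4: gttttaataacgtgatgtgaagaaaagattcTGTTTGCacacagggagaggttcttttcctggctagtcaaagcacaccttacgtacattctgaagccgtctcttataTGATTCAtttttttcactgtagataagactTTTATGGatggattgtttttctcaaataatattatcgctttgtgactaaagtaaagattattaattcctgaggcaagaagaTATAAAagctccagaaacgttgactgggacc
AGR2: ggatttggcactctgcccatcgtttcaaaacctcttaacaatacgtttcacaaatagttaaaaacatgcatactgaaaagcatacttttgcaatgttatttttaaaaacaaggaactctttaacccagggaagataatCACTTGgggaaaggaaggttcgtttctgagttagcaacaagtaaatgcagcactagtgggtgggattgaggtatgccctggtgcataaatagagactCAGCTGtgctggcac
AGR3: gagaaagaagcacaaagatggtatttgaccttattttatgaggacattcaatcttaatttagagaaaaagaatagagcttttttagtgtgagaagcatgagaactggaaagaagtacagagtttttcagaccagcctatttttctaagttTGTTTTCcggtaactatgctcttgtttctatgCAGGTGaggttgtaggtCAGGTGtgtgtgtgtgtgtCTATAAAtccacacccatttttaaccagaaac

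REG4 held a TATA box match starting at -31, a caudal match at -112, an AP-1 match at -142 and a forkhead match at -219 before its start, and no E-box. AGR3 held a TATA box match at -31 that overlaps a caudal match at -32, a forkhead match at -100 and E-boxes at -68 and -51. AGR2 held E-boxes at -112 and -15 and none of the other letters. Of the 7 members with a window, TATA box, caudal and forkhead letters were in 3 each, AP-1 letters in 1 and E-boxes in 5. The caudal match overlaps the TATA box match in AGR3 and SPINK4, and stands apart from it in REG4. Over 35093 windows of the same length, 10.7% held the TATA box letters, 8.94% the caudal letters, 15.5% the forkhead letters, 6.57% the AP-1 letters and 61.8% an E-box. A match of letters does not show that a factor binds there.

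REG4 was the member that was 2-fold or more higher in the derivatives of both lines. Its probe set with the highest mean read 8.06 in parental HT29, 10.45 in resistant HT29, 5.61 in parental Colo205 and 8.76 in resistant Colo205. Both resistant arrays lay above both parental arrays, which held for 1 of the 10 members and for 11.2% of all genes. The difference was 2.39 on the log2 scale in HT29 (5.24-fold) and 3.15 in Colo205 (8.88-fold). It ranked 59th from the top of 13651 genes in HT29 and 11th in Colo205. The parental Colo205 reading lies below 5.73, the median of the whole table used as the filter value, and was not shown to exceed background, so the fold in that line has no exact size.

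A second REG4 probe set gave differences of 2.40 in HT29 and 3.36 in Colo205, from 7.22 to 9.63 and from 4.06 to 7.43. The third stayed below the filter value on all 4 arrays, between 4.05 and 5.53, and differed by 0.32 and -0.44. Over both lines, limma with the line as a block put the mean difference at 2.77 with a 95% interval from 2.03 to 3.50 over 2 pairs, and an adjusted p = 0.706. That p misses the threshold of 0.05, as did that of every gene. REG4 ranked 7th of all genes by unadjusted p. In the order of levels, parental HT29 and resistant Colo205 were neighbours, with REG4 lower in parental HT29 by 0.70 on this scale. The resistant minus parental differences of probe sets of 1 gene had a pooled SD of 0.30 in each line. That SD covers disagreement between probe sets and is no measure of the gap between arrays. No array pair measures the spread between cultures.

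**Figure D1:**
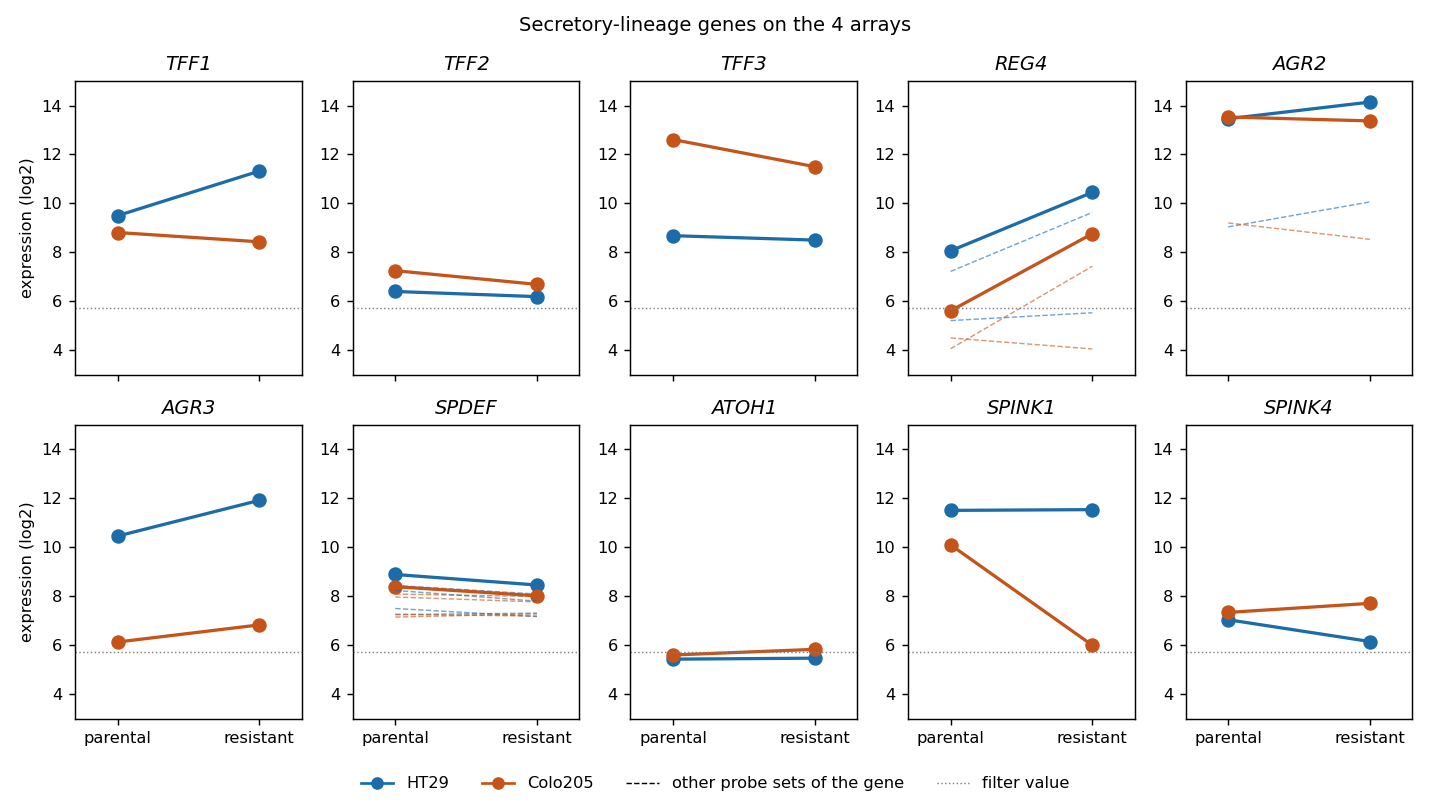
Expression (log2) of each of the 10 genes in parental and resistant cells of HT29 (blue) and Colo205 (orange), 1 array per point; solid lines join a parent to its derivative, dashed lines are the gene's other probe sets and the dotted line is the filter value of 5.73. REG4 was 2-fold or more higher in the derivative of both lines, TFF1 and AGR3 in that of HT29 alone, and SPINK1 was 10.10 in parental and 6.0 in resistant Colo205.

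The 3 trefoil genes did not move together. TFF1, the trefoil peptide of gastric surface cells, went from 9.50 in the HT29 parent to 11.32 in its derivative, and from 8.81 to 8.43 between the Colo205 arrays. Resistant HT29 stood above the other 3 arrays, with a difference from its parent of 1.82 (3.53-fold), while the Colo205 pair differed by -0.38. TFF3, the trefoil peptide of intestinal goblet cells, read 8.68 and 8.50 in the HT29 pair and 12.61 and 11.50 in the Colo205 pair. It differed by -0.18 in HT29 and by -1.11 in Colo205 (2.16-fold lower). The poly-A spikes differed by a median of -0.72 in that pair, and all genes by a median of -0.02. The part of the spikes in this or any other member's difference was not tested. TFF2, the trefoil peptide of gastric mucous neck cells, read 6.40, 6.19, 7.25 and 6.69 on the same 4 arrays in that order, with differences of -0.21 and -0.56. Each trefoil gene has 1 probe set here, so no second reading of these differences can be given.

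Across both lines the mean difference was 0.72 for TFF1 (95% interval -1.05 to 2.49, adjusted p = 0.775 in limma). It was -0.38 for TFF2 (-0.89 to 0.13) and -0.64 for TFF3 (-1.49 to 0.20), each with adjusted p = 0.706. The TFF1 mean is positive through HT29, with 1.82 there and -0.38 in Colo205. The trefoil genes lie side by side on chromosome 21 in the order TFF3, TFF2, TFF1. The 38 genes kept around TFF1, up to 20 on each side without the members, had a median difference of -0.04 in HT29 and 0.09 in Colo205. The next gene on the TFF3 side, the sterol transporter gene ABCG1, was at 0.76 in HT29 and 0.98 in Colo205. TMPRSS3, a membrane serine protease gene next to TFF1, was at -0.45 and -1.27. TFF1 thus differed upward in HT29 between neighbours at -0.21 and -0.45.

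AGR3 was higher in both derivatives and far higher in HT29 than in Colo205. Parental HT29 read 10.46 and its derivative 11.92, against 6.13 for parental Colo205 and 6.83 for its derivative. The HT29 arrays lay above the Colo205 arrays without overlap, and the differences from the parent were 1.46 (2.76-fold) and 0.70 (1.62-fold). The limma mean difference was 1.08 with a 95% interval from 0.34 to 1.82 and adjusted p = 0.706. AGR3 has 1 probe set.

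AGR2 was read by 2 probe sets. The one with the higher mean gave 13.46 and 14.14 in the HT29 pair and 13.53 and 13.37 in the Colo205 pair, and the other 9.04 and 10.06, and 9.20 and 8.53. Both placed resistant HT29 highest of the 4 arrays. The differences were 0.68 and 1.02 in HT29 and -0.16 and -0.67 in Colo205, so that the direction was opposite in the lines for both probe sets. The first lies near the top of the table's range, which ends at 14.88. The limma mean difference was 0.26 (95% interval -0.53 to 1.05, adjusted p = 0.805).

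AGR2 and AGR3 are neighbours on chromosome 7, in a stretch where most genes were higher in resistant HT29. The 39 genes kept around AGR3, without the members, had a median of 0.55 in HT29 with quartiles at 0.28 and 0.91, and 8 of them were 2-fold or more higher and 0 lower. In Colo205 their median was -0.06, with 0 past 2-fold upward and 1 downward. The AGR2 difference of 0.68 in HT29 lay between those quartiles, and the AGR3 difference of 1.46 above the upper one. TSPAN13, a tetraspanin gene next to AGR2, was at 0.55 in HT29 and -0.60 in Colo205. The locus after AGR3, LOC101927609, was at 0.47 and 0.38. The part of these neighbours' shared difference in that of AGR2 and AGR3 was not tested.

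**Figure D2:**
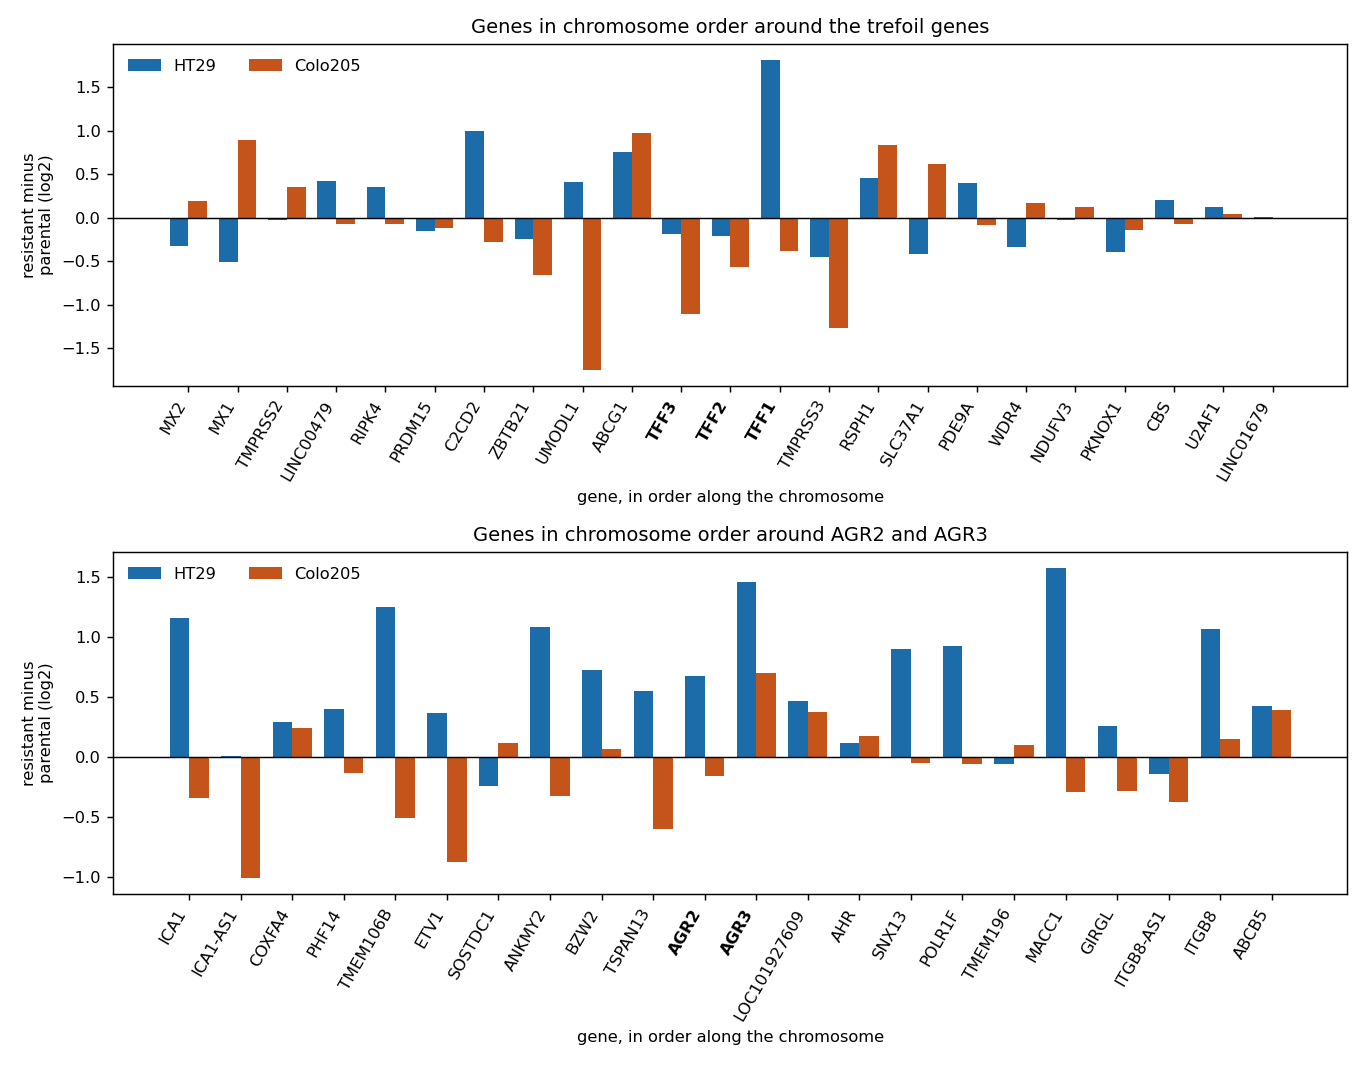
Resistant minus parental expression (log2) for genes in chromosome order around the trefoil genes (top) and around AGR2 and AGR3 (bottom), 1 bar per line and gene, members in bold. TFF1 at 1.82 stands apart from its neighbours in HT29, whereas AGR2 and AGR3 lie among genes that were mostly higher in HT29, with a median of 0.55.

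SPINK1 differed in Colo205 alone. Parental HT29 read 11.51 and its derivative 11.54, while the Colo205 parent read 10.10 and its derivative 6.0. Resistant Colo205 stood far below the other 3 arrays, close to the filter value of 5.73. The difference was 0.04 in HT29 and -4.10 in Colo205 (17.14-fold lower), the 9th lowest of all genes in that line. Its 1 probe set carries the suffix by which Affymetrix marks probes shared by several transcripts. The limma mean of -2.03 had a 95% interval from -5.28 to 1.22 (adjusted p = 0.706), since the mean joins a line with almost no difference to one with a large one.

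SPINK4, best known from goblet cells, read 7.04 and 6.15 in the HT29 pair and 7.34 and 7.71 in the Colo205 pair. It was lower in resistant HT29 by -0.88 and higher in resistant Colo205 by 0.37. Resistant HT29 was the lowest of the 4 arrays and resistant Colo205 the highest. The limma mean difference was -0.26 (95% interval -1.32 to 0.81, adjusted p = 0.860).

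The transcription factors of the programme showed no difference of 2-fold. SPDEF read 8.89 and 8.46 in the HT29 pair and 8.39 and 8.02 in the Colo205 pair on its probe set with the highest mean, lower in both derivatives by -0.42 and -0.37. Its 5 probe sets gave HT29 differences between -0.43 and 0.06, and Colo205 differences between -0.37 and 0.14, and all carry the suffix for probes that can read other sequences. The limma mean difference was -0.40 (95% interval -0.83 to 0.04, adjusted p = 0.706). ATOH1 read 5.43, 5.47, 5.60 and 5.83, of which 1 reading reached the filter value, so that ATOH1 was not shown to lie above background in HT29 or in parental Colo205. Its differences of 0.03 and 0.24 and its mean of 0.13 (95% interval -0.33 to 0.60, adjusted p = 0.824) are therefore those of a probe set near background.

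Set against all genes, 3 of the 10 members were 2-fold or more higher in resistant HT29 (TFF1, REG4 and AGR3), where 3.42% of all genes were, and 0 were 2-fold lower, where 1.72% were. The members were chosen with earlier results of these data known, so counts beside shares of all genes, here and below, are a description. In resistant Colo205, 1 member was 2-fold or more higher (REG4), against 0.908% of genes, and 2 were lower (TFF3 and SPINK1), against 2.51%. REG4 was the 1 member past 2-fold upward in both lines, as were 0.293% of genes. The direction was opposite in the lines for 4 members (TFF1, AGR2, SPINK1 and SPINK4), and for 43.3% of genes. At any size, 3 members were higher in both lines (REG4, AGR3 and ATOH1), where 26.3% of genes were. ATOH1 was at 0.00 in HT29 after median centring or quantile normalisation. Lower in both lines were 3 members (TFF2, TFF3 and SPDEF), where 30.1% of genes were. The median difference over the members was 0.03 in HT29 and -0.27 in Colo205, beside -0.01 and -0.02 over all genes. Both resistant arrays lay below both parental arrays in 0 members and in 10.8% of genes.

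**Figure D3:**
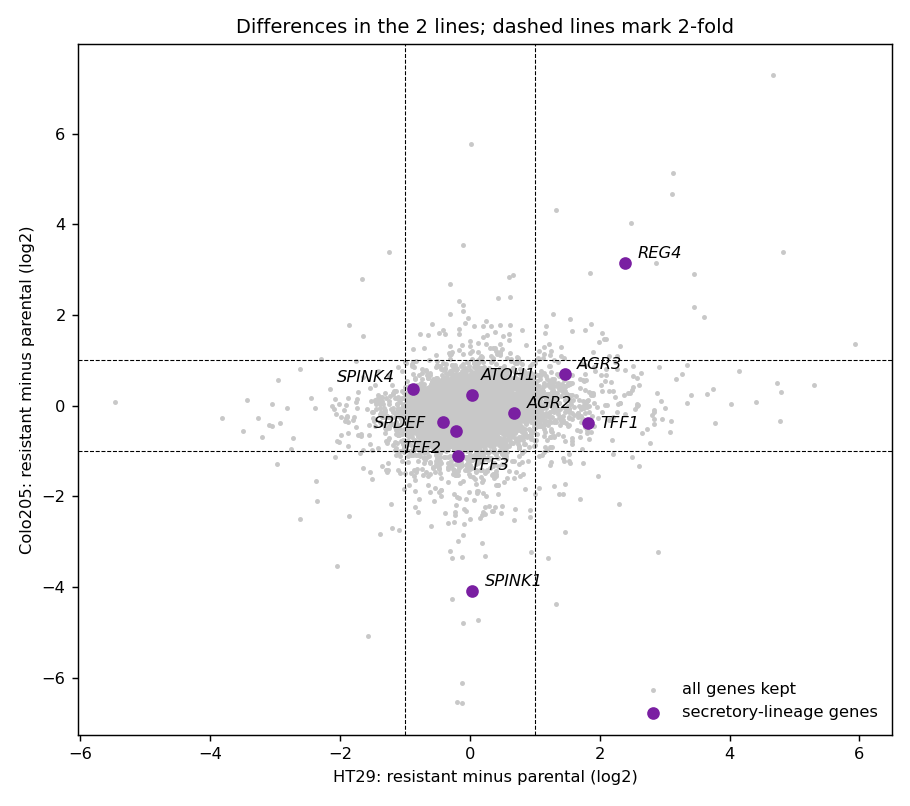
Resistant minus parental expression (log2) in HT29 (horizontal) and Colo205 (vertical) for all 13651 genes kept (grey) and the 10 secretory-lineage genes (purple), with dashed lines at 2-fold. REG4 lies at 2.39 and 3.15, TFF1 and AGR3 beyond 2-fold in HT29 alone, and SPINK1 at -4.10 and TFF3 at -1.11 in Colo205 alone.

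limma called 0 members, and 0% of all genes, at an adjusted p below 0.05 for resistant against parental cells, with a smallest adjusted p of 0.706 over all genes. At an unadjusted p under 0.05 there were 2 members, REG4 and AGR3, against 6.80% of genes. With 1 residual degree of freedom, these p-values rest mostly on the spread that limma borrows from all genes.

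AGR3 and TFF3 differed in level between the lines by more than they differed between parent and derivative. In the same fit, with status as the covariate, 3 of 10 members passed an adjusted p of 0.05 for HT29 against Colo205, where 15.2% of all genes did. AGR3 was higher in HT29 by a mean of 4.71 (95% interval 3.97 to 5.45, adjusted p = 0.00931 in limma). REG4 was higher in HT29 by 2.07 (1.33 to 2.80, adjusted p = 0.0266), although resistant Colo205 at 8.76 lay above parental HT29 at 8.06. TFF3 was lower there by a mean difference of -3.46 (-4.30 to -2.61, adjusted p = 0.0163). The 2 arrays of a line are a parent and its derivative, so the test covers the spread between these arrays and not between independent cultures.

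The REG4 call was lost with line as the 1 term (adjusted p = 0.350). Fits without 1 array likewise hold line alone and leave 1 line with a single array, which is assumed to vary like the other line. The REG4 call was lost in all 4 of them, with adjusted p = 0.216 without parental HT29, adjusted p = 0.747 without resistant HT29, adjusted p = 0.849 without parental Colo205 and adjusted p = 0.159 without resistant Colo205. The AGR3 call was lost without parental Colo205 (adjusted p = 0.0633). TFF3 passed in each of these fits, with adjusted p = 0.0423 without resistant HT29 as the highest. SPINK1, higher in HT29 by a mean of 3.47 (0.23 to 6.72, adjusted p = 0.125), passed without parental Colo205 (adjusted p = 0.0150), where its own spread comes from the HT29 pair at 11.51 and 11.54 alone. TFF1, at 1.79 (0.02 to 3.56, adjusted p = 0.138), and SPINK4, at -0.93 (-2.00 to 0.14, adjusted p = 0.178), passed without parental HT29, where it comes from the Colo205 pair alone (adjusted p = 0.0160 and adjusted p = 0.0478).

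The remaining 4 members were not called. TFF2 was at -0.67 for HT29 minus Colo205 (-1.18 to -0.16, adjusted p = 0.0900), SPDEF at 0.47 (0.03 to 0.90, adjusted p = 0.124), AGR2 at 0.34 (-0.44 to 1.13, adjusted p = 0.443) and ATOH1 at -0.27 (-0.73 to 0.20, adjusted p = 0.326). The HT29 and Colo205 arrays did not overlap in 8 of 10 members, all but REG4 and AGR2, and in 63.4% of genes. Between the parents 4 members differed 2-fold or more, where 18.7% of genes did. TFF3 differed by -3.92 for HT29 minus Colo205, REG4 by 2.45, AGR3 by 4.33 and SPINK1 by 1.41. Between the derivatives 6 did, where 19.6% of genes did, the same 4 with TFF1 at 2.89 and SPINK4 at -1.56. There SPINK1 stood at 5.54, TFF3 at -2.99, REG4 at 1.69 and AGR3 at 5.09.

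**Figure D4:**
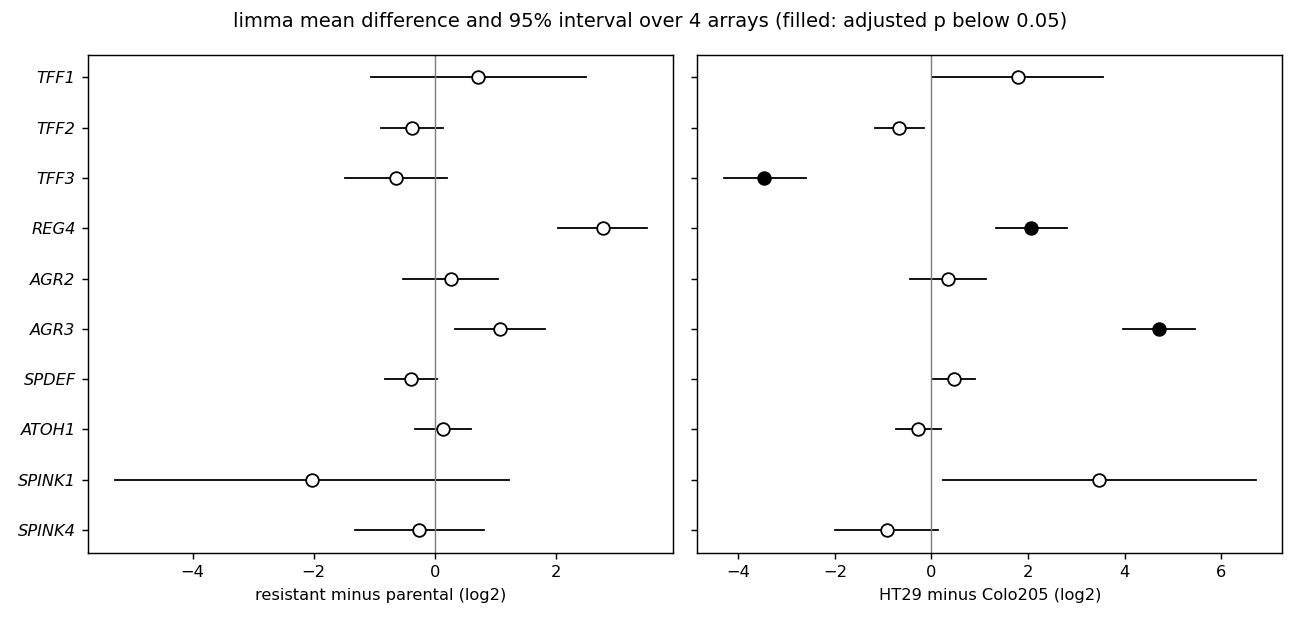
limma mean difference (point) with its 95% interval (line) over the 4 arrays, in log2 units, for resistant minus parental with the line as a block (left) and for HT29 minus Colo205 with status as covariate (right). No gene is filled on the left, and TFF3, REG4 and AGR3 are filled on the right, where filled points mark an adjusted p below 0.05.

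Genes with a like pattern were taken by the Euclidean distance between the 4 array values after each gene was centred on its own mean, for the 4 members with the widest range over the arrays. The nearest to REG4 were the adhesion gene CEACAM5 (distance 0.34 on the log2 scale), the acyltransferase gene GPAT3 (0.44) and the monoamine oxidase gene MAOB (0.84). CEACAM5 read 9.10, 11.96, 6.84 and 10.00 in parental HT29, resistant HT29, parental Colo205 and resistant Colo205. The nearest to AGR3 were the sialyltransferase gene ST3GAL1 (0.43), the matrix metalloproteinase gene MMP7 (0.52) and MYRFL (0.57). The nearest to TFF3 were SERPINI1 (0.17), UBE2L6 (0.27) and the epoxide hydrolase gene EPHX2 (0.28). The nearest gene to SPINK1 was farther off than the nearest to each of these, with the fatty acid elongase gene ELOVL7 at 0.78, NHS at 0.81 and LPCAT2 at 1.07. With 4 arrays, many genes can share a pattern, and the distances are a description.

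The other genes of the secretory lineages were taken from lists of their products and regulators. None of them rose past 2-fold in HT29 and in Colo205 alike, which 0.293% of all genes did. With a share that low, finding none does not set these lists apart from all genes. Of 15 goblet cell product genes, 10 passed the filter. Of these, 0 were 2-fold higher in HT29 or in Colo205, where 3.42% and 0.908% of all genes were. Lower by 2-fold or more in HT29 were 2, where 1.72% of all genes were. These were ST6GALNAC1, which makes the sialyl-Tn antigen on mucins, at -2.06 in HT29 and -0.19 in Colo205, and the gastric mucin gene MUC5AC, at -1.36 and 0.11. ST6GALNAC1 read 7.65 and 5.59 in the HT29 pair and 9.47 and 9.28 in the Colo205 pair. The list had medians of -0.04 and -0.07, beside -0.01 and -0.02 over all genes. The goblet cell genes CLCA1, ZG16, ITLN1 and BEST2 and the gastric mucin gene MUC6 stayed below the filter on all 4 arrays.

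Of 17 secretory transcription factor genes 12 were kept, with an HT29 median of -0.34 and a Colo205 median of -0.30. Both derivatives were below their parents for 8 of the 12 genes and above them for 1, where the shares over all genes were 30.1% below and 26.3% above. KLF4, a factor of goblet cell differentiation, was at 1.09 and 0.34, and CREB3L1, an endoplasmic reticulum-bound factor, at -1.36 and -0.41. GFI1, NEUROG3, NEUROD1, INSM1 and PAX6 were not among the genes kept. By limma 0 of the 12 passed the adjusted threshold. The poly-A spike medians of -0.43 and -0.72 have the same sign as the medians of this list, and their part in it was not tested.

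All 18 Notch pathway genes were kept, with medians of -0.00 and -0.16, and 3 of 18 were higher and 7 lower in both lines, beside the same 26.3% and 30.1% of all genes. The ligand gene JAG1 was at 1.47 in HT29 and 0.13 in Colo205. HES1, the Notch-induced repressor that restrains ATOH1, was at -1.41 and 0.12, with HT29 readings of 11.16 and 9.75 and Colo205 readings of 9.72 and 9.84. HES6 was at -1.01 and -0.16, and HEY1, another Notch target, at 0.52 and -1.14. ATOH1 itself stayed near background on the same arrays.

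The 12 kept genes of the endoplasmic reticulum secretory machinery had medians of -0.14 and -0.11. Only the oxidoreductase gene ERO1B of these passed 2-fold, at 0.76 and -1.29, where 2.51% of all genes were 2-fold lower in Colo205. Its HT29 readings of 3.98 and 4.74 lie below the filter value, while its Colo205 readings were 7.93 and 6.64. Of 9 further REG and SPINK genes, 8 were named on the array and 1 passed the filter, REG1A, at -0.09 and -0.04. REG1A read between 6.10 and 6.19, and REG1B, REG3A and REG3G were below the filter value on all 4 arrays. The REG4 difference thus had no counterpart among the REG genes measured, all of which read near or below the filter value.

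Of 8 enteroendocrine genes 5 were kept, with medians of 0.26 and 0.34. The granin gene SCG2 was at 1.46 and 0.42, from 4.58 to 6.04 in HT29, and SCG5 at 1.64 and 0.21, from 4.14 to 5.78. Both HT29 parental readings lie below the filter value. CHGA and CHGB, the defining granins, were below it on all arrays. Of 10 Paneth and tuft cell genes 7 were kept, with medians of 0.18 and 0.23. MMP7 was at 1.43 and 0.70, and the tuft cell marker DCLK1 at 0.66 and 2.88, from 4.40 to 7.28 in Colo205. The other 3 DCLK1 readings lie below the filter value, so its fold in Colo205 has no exact size. Of the other tuft cell genes of the list, AVIL, between 7.08 and 7.41, and GFI1B, between 6.09 and 6.52, passed the filter on all 4 arrays, and POU2F3 and TRPM5 stayed below it. Of 11 gastric genes 7 were kept, with medians of -0.03 and 0.00, the water channel gene AQP5 at -2.12 and 0.00 and the annexin gene ANXA10 at 0.13 and 1.18. In Colo205 ANXA10 went from 5.10, below the filter value, to 6.28, so its fold there has no exact size. The gastrokine genes GKN1 and GKN2, which accompany TFF1 in the stomach, were below the filter on all 4 arrays, as was PSCA. Other genes of this list read far above it. TSPAN8 lay between 13.89 and 14.05 on all 4 arrays. ANXA10 read 12.60 and 12.73 in the HT29 pair, and MUC1 read 11.57 and 10.99 in the Colo205 pair. None of the genes in these lists passed the adjusted threshold for resistant against parental cells in limma, where 0% of all genes did.

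**Figure D5:**
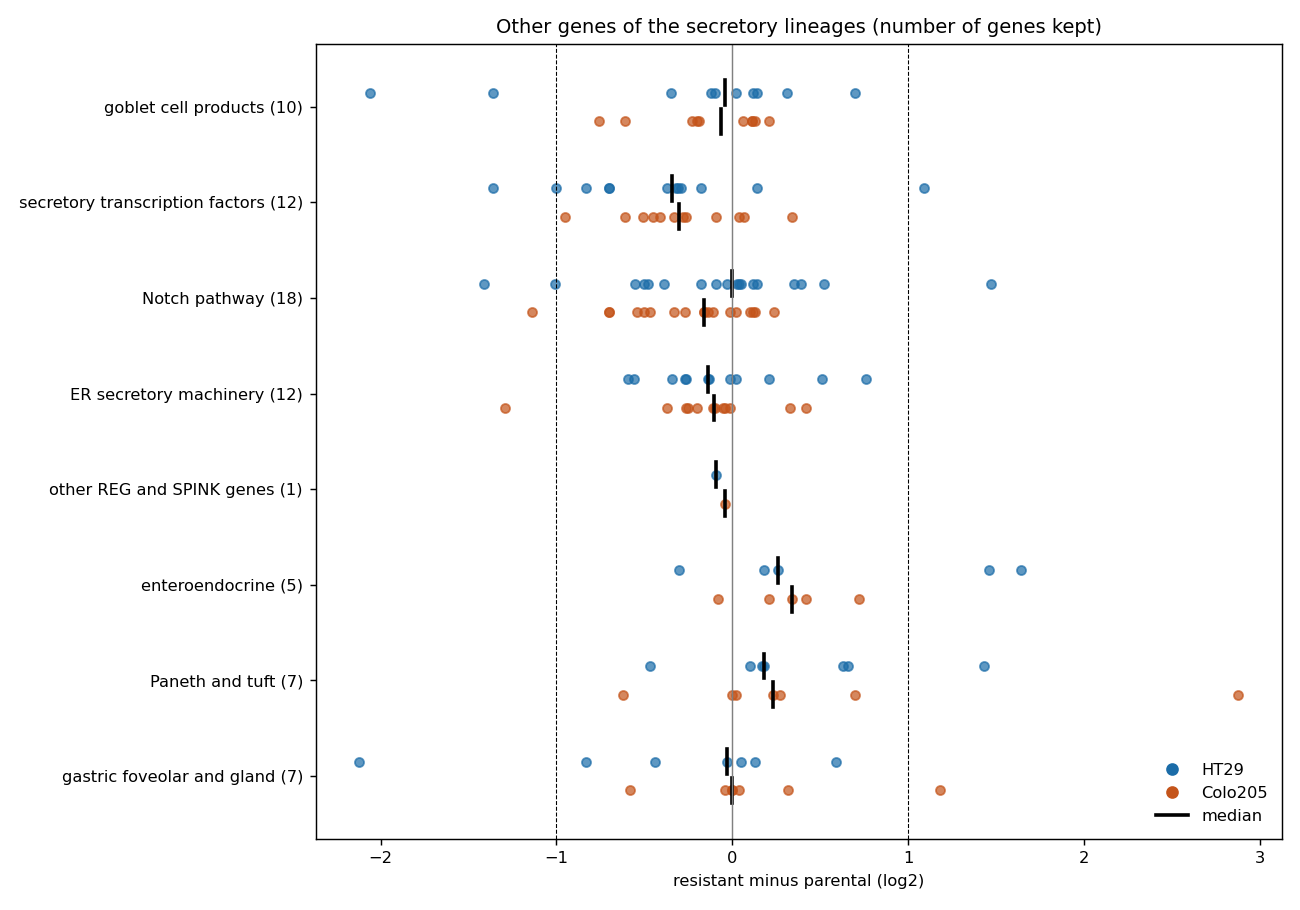
Resistant minus parental expression (log2) for the kept genes of 8 lists of secretory-lineage genes, 1 point per gene and line, with black bars at the medians and dashed lines at 2-fold. Most points lie between the dashed lines, and those beyond -2 are AQP5 at -2.12 and ST6GALNAC1 at -2.06 in HT29. ST6GALNAC1 ends there at a reading below the filter value, and DCLK1 at 2.88 in Colo205 starts from a reading below it.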

How the data were processed

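Total RNA of 4 cultures was hybridised to Affymetrix arrays as biotin-labelled cRNA, per the labels' protocols. The deposited table holds log2 values per probe set, made by the authors. MAS5 and RMA both appear in the submitters' processing notes, which assign neither a step. That the values are log2 follows from their range (2.51 to 14.88); how background was corrected was not stated in those notes. Of 54675 probe sets, 41091 named 1 gene. Each gene took its probe set with the highest mean, and genes whose highest value lay below 5.73, the median of the table, were left out (13651 of 19775 kept). The number of arrays limits the precision.

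Differences within a line have no test. The comparisons across arrays used limma 3.58.1 in R 4.3.3 with terms for status and line, 1 residual degree of freedom (2.54 borrowed), and Benjamini-Hochberg adjustment over all genes. The line pairs each derivative with its parent. Neighbours follow the order of the RefSeq table of GRCh38.p14, and promoter sequences are RefSeq's. Of 10 members, 7 matched a promoter entry. The members and lists were chosen with earlier results of these data known. Genes named from the lists are those past 2-fold in either line, at most 4 a list by size, and like-pattern and adjacent genes follow a fixed count. Marker genes, REG1A, kept list genes named for their readings alone and genes named as below the filter were picked after their values were seen.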

Additional observations from a re-analysis of the deposited data

Results flagged for a closer look

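In 4 members the difference between derivative and parent had opposite signs in the lines. With 1 difference per line, whether the lines differ was not tested. The HT29 difference minus the Colo205 difference was 2.20 on the log2 scale for TFF1 (1.82 and -0.38) and 4.14 for SPINK1 (0.04 and -4.10). It was 0.84 for AGR2 (0.68 and -0.16), whose second probe set has the same signs, and -1.26 for SPINK4 (-0.88 and 0.37). Opposite signs were found in 43.3% of all genes.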

How the results depend on the processing

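The members past 2-fold were the same genes under the median over probe sets, median centring, quantile normalisation, no filter and a stricter filter, in both lines. At 1.5-fold, 5 members differed in HT29 (AGR2 and SPINK4 added) in place of 3, and 4 in Colo205 (AGR3 added). Of all 13651 genes, 2047 then differed in HT29 in place of 702, and 1470 in Colo205 in place of 467. The REG4 difference in Colo205 was -0.44 on the probe set that stayed below the filter. Median centring and quantile normalisation moved no member's difference by more than 0.09, and brought that of ATOH1 in HT29 to 0.00. For resistant against parental, 0 members passed under every alternative run, leaving out each array included. All genes at an unadjusted p under 0.05 numbered 928, but 131 with no replicate block, and 88 to 224 without 1 array in fits that had to leave out the block. For HT29 against Colo205, 2070 genes passed, and 669 to 1825 without 1 array. Of the members 2 to 4 passed there and 2 with line alone, against 3. For the mean difference of a member, leaving out a line gives the other line's difference, as printed for each gene. The number of arrays and readings near the filter value limit REG4, SPINK1 and AGR3 in Colo205 and ATOH1 everywhere.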
